A study of Mus musculus with 4 samples.

Results

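The small heat shock proteins of muscle were followed on 4 Affymetrix mouse arrays of RNA labelled as mouse heart. The family was represented by 7 genes, Hspb1, Hspb2, Hspb3, Hspb6, Hspb7, Hspb8 and Cryab, and every probe set whose annotation gave exactly 1 of these symbols was taken. This yielded 14 probe sets of the 45037 that are not array controls, and 7 of the 18193 genes with a single symbol. Of the 14, 3 each read Hspb7, Hspb8 and Cryab, 2 read Hspb1, and Hspb2, Hspb3 and Hspb6 had 1 each. Members were thus not chosen by a threshold, but the family was picked after an earlier look at the same arrays had shown Hspb7 higher in those labelled Rhau KO, so that the comparison by label is given here as a description. No p-value of a member is given, and counts of members past a threshold of the fit over all probe sets support nothing. The arrays were labelled Rhau KO (genotype CAAG-ERT2-Cre;Rhau F/F, n = 2) or Control (Rhau F/F, n = 2), and the question was how gene expression differs after Rhau, the gene of an RNA helicase, is deleted in the adult. All mice were C57BL/6J, carried the floxed alleles and received 5 successive doses of tamoxifen at 2 months of age, and hearts were taken 2 months later. In which cell types the Cre acts, and whether the replicates came from separate animals, the sources used here do not say. The p-values of the fit therefore reflect the spread of these arrays alone, which may be technical, and for a single value the smallest p of an exact two-sided permutation test at this size is 0.333.

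Small heat shock proteins are chaperones that use no ATP. They share an alpha-crystallin domain, assemble into oligomers, and hold unfolding proteins until other chaperones refold them or pass them on for degradation. In heart and skeletal muscle they are found on desmin, actin, titin and filamin, and mutations of Cryab and Hspb8 cause muscle disease. Heat shock factor 1, which binds inverted repeats of GAA called heat shock elements, induces Hspb1 and Cryab under stress, along with the larger chaperones.

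The starts of the members were therefore searched for the heat shock element in its shortest form, GAANNTTC or TTCNNGAA, each of which reads the same on both strands. RefSeq promoter windows of 300 bases (build GRCm38.p6, 250 bases before to 50 after a start) were found for 5 of the 7 genes, all but Hspb2 and Cryab, in 6 windows. GAANNTTC was present in 4 of the 6 windows, against 7.86% of all 32851 promoter windows. The matches are shown with 11 bases on either side, 5′ to 3′ along the gene, with the motif in capitals, since they are the one sequence feature searched for here that members share.
Hspb1 (chr5:135887791-135887820, plus strand): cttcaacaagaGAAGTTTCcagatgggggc
Hspb1 (chr5:135887811-135887840, plus strand): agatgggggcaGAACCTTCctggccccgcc
Hspb3 (chr13:113663882-113663911, minus strand): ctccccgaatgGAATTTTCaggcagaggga
Hspb6 (chr7:30553170-30553199, plus strand): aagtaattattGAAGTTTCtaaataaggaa
Hspb8 (chr5:116422844-116422873, minus strand): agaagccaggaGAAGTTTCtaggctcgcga
Hspb1, Hspb6 and Hspb8 held the identical letters GAAGTTTC, which began 117 bases before the start in Hspb1, 120 before in 1 of the 2 windows of Hspb6, and at base 3 after it in Hspb8. The window of Hspb7 held neither form. TTCNNGAA was in 0 of the 6 windows and 8.52% of all, and the longer repeats GAANNTTCNNGAA and TTCNNGAANNTTC were in 0 of the 6, against 0.31% and 0.32% of all. Among 14 heat-inducible chaperone genes with a window, 9 held GAANNTTC. Counted by window, 10 of the 19 chaperone windows (52.6%) held this form and 5 (26.3%) the other short form. The longer repeats, in the order above, were in 3 (15.8%) and 5 (26.3%) of the 19. The members, with 6 windows only, thus shared 1 form with the chaperones and held none of the others. A match is a string of letters and not a measured binding site.

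Dhx36, which encodes RHAU, ran against the labels, with a mean intensity of 552 ± 21.7 (SD, n = 2) for Rhau KO and 261 ± 94.4 (SD, n = 2) for Control on its probe set 1424397_at and a higher mean in Rhau KO on the other 2 as well. Rhau KO and Control are therefore used here as the names on the arrays. The 2 Control arrays did not hold the same tissue signature. In Control replicate 1, all 16 skeletal muscle markers were the highest of the 4 arrays (Myh4, a fast myosin, read 43654 there and at most 80.4 elsewhere), and their summed intensity was 582547 against 2203 in Control replicate 2 and 2034 to 4109 in the arrays labelled Rhau KO. All 12 cardiomyocyte markers were the lowest there (Tnni3, cardiac troponin I, read 10.3 against 37838 to 39371), with a sum of 150255 against 505658 to 508561 in the other 3 arrays. They were lower by unequal amounts, from -11.9 to -0.13 log2 units from the mean of Rhau KO, and 8 of the 12 by over 2-fold. The sum in that array therefore comes from the markers that stayed high, such as Myl2 (37359), Myl3 (37087) and Atp2a2 (35567). It is no measure of the others, such as Mybpc3 (53.2) and Myh6 (171), or of how much heart RNA the array held. Whether the markers that stayed high are particular to heart muscle was not tested. No marker was listed at 0. In Control replicate 2, all 16 measured heat-inducible chaperones were the highest of the 4 arrays, against 23.8% of all genes. That list was chosen with earlier results of these data known, so the count is a description and no test. In tissue RNA, fewer cells of a type and less RNA per cell cannot be told apart. The part of these signatures in the values of the members was not tested.

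By array label, the mean of Hspb7 was higher in Rhau KO on all 3 of its probe sets and that of Hspb3 was lower. Hspb1, Hspb2, Hspb6, Hspb8 and Cryab differed by about 1 standard error of the fit or less, and so did Hspb7 on 1421289_at (0.60, standard error 0.62). Log2 differences of the 14 probe sets, Rhau KO minus Control, ran from -1.16 (Hspb3) to 1.43 (Hspb7, probe set 1434927_at), with a median of 0.16 beside 0.09 over all probe sets. Of the 14, 9 had a higher mean log2 intensity in Rhau KO, as did 56.6% of all probe sets. The arrays of the 2 labels did not overlap on 4 of the 14, as on 35.4% of all probe sets. Rhau KO was above Control on 3 (21.4% of all) and below it on 1 (14.0% of all). In limma, 0 of 45037 probe sets passed a Benjamini-Hochberg adjusted p of 0.05 (1892 at an unadjusted p under 0.05, and 0 and 2374 by the methods' t-test). Without Control replicate 1 or Control replicate 2, the adjusted count was 132 or 6286. At a fold of 2 with an unadjusted p under 0.05, the thresholds the study used for its arrays, 2 of the 14 passed, against 3.36% of all probe sets, with Hspb7 on 1434927_at the 1 higher (1.88% of all) and Hspb3 the 1 lower (1.48% of all). The unadjusted p alone was under 0.05 for the same 2, against 4.2% of all. Nothing is read from these counts, because the family was picked on the same comparison.

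**Figure D1:**
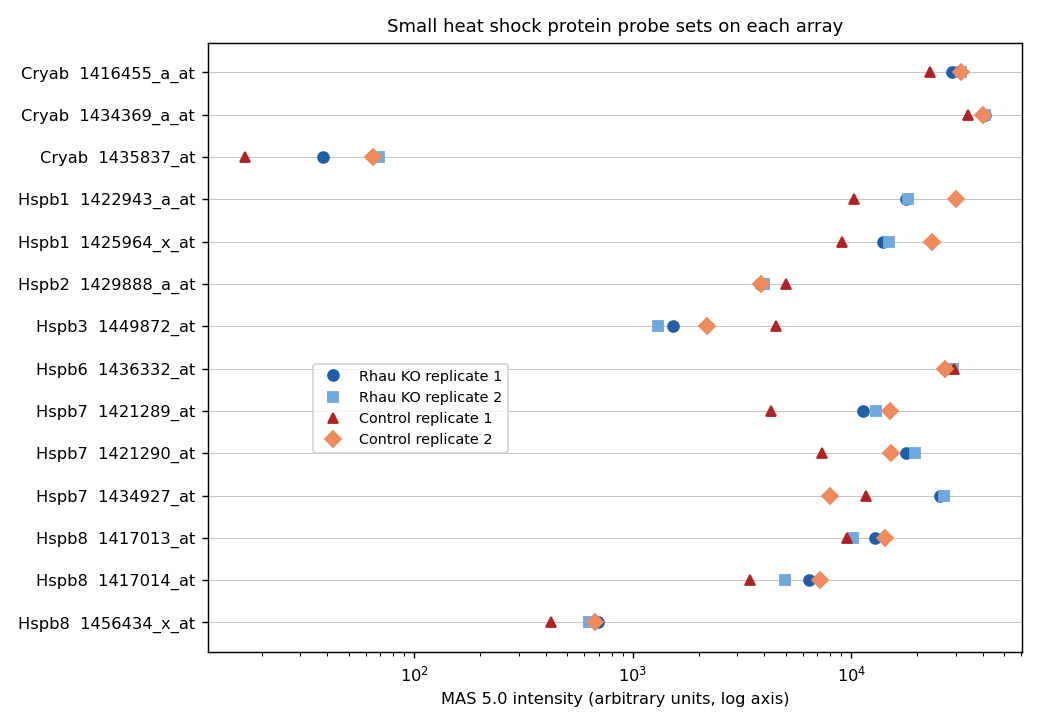
MAS 5.0 intensity (arbitrary units, log axis) of the 14 probe sets, 1 row each, with 1 symbol per array, blue for arrays labelled Rhau KO and red or orange for arrays labelled Control. Control replicate 1 (red triangles) is the lowest on 10 of the 14 rows, and the blue symbols of a row are never more than 1.79-fold apart.

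Hspb7 is expressed mainly in heart and skeletal muscle, where it binds filamin C and takes part in thin filament assembly. On probe set 1434927_at it read 25506 and 26527 in Rhau KO against 11678 (replicate 1) and 7989 (replicate 2) in Control. Both Rhau KO arrays lay above both Control arrays, and the means were 26016 ± 722 (SD, n = 2) and 9834 ± 2609 (SD, n = 2), which is 2.69-fold or 1.43 log2 units (standard error 0.27). On 1421290_at it read 17829 and 19534 in Rhau KO against 7307 (replicate 1) and 15111 (replicate 2) in Control. The groups again did not overlap, with a log2 difference of 0.83 (standard error 0.39), although Control replicate 2 came close to the Rhau KO arrays. On 1421289_at the readings were 11331 and 13015 in Rhau KO against 4284 (replicate 1) and 14985 (replicate 2) in Control, for a log2 difference of 0.60 (standard error 0.62). Here the groups overlapped, because Control replicate 2 was the highest of the 4 arrays.

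The 3 probe sets of Hspb7 thus had the same sign in the comparison of the groups but did not agree on Control replicate 2. Relative to the mean of the Rhau KO arrays, Control replicate 1 lay at -1.16, -1.35 and -1.50 log2 units on 1434927_at, 1421290_at and 1421289_at. Control replicate 2 lay at -1.70, -0.30 and 0.30. The ratio of 1421289_at to 1434927_at within an array was 0.444 and 0.491 for Rhau KO and 0.367 for Control replicate 1, but 1.88 for Control replicate 2. This shows unequal readings of the 2 probe sets in that array and not which of them follows the Hspb7 mRNA. Over 13802 pairs of probe sets of the same gene in the brighter part of the array, 0.254% had a ratio in Control replicate 2 that far from the Rhau KO arrays (2.01 log2 units, against a median of 0.23). The ratio of 1421290_at to 1434927_at moved by 1.40 log2 units, as far as 1.18% of pairs. The annotation derives 1421289_at and 1421290_at from the same source sequence and 1434927_at from another, so the first 2 are not independent readings. Against Control replicate 2 alone, the log2 difference of Hspb7 was 1.70 on 1434927_at, 0.30 on 1421290_at and -0.30 on 1421289_at, and against Control replicate 1, the array with the skeletal muscle signature, it was 1.16, 1.35 and 1.50.

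**Figure D2:**
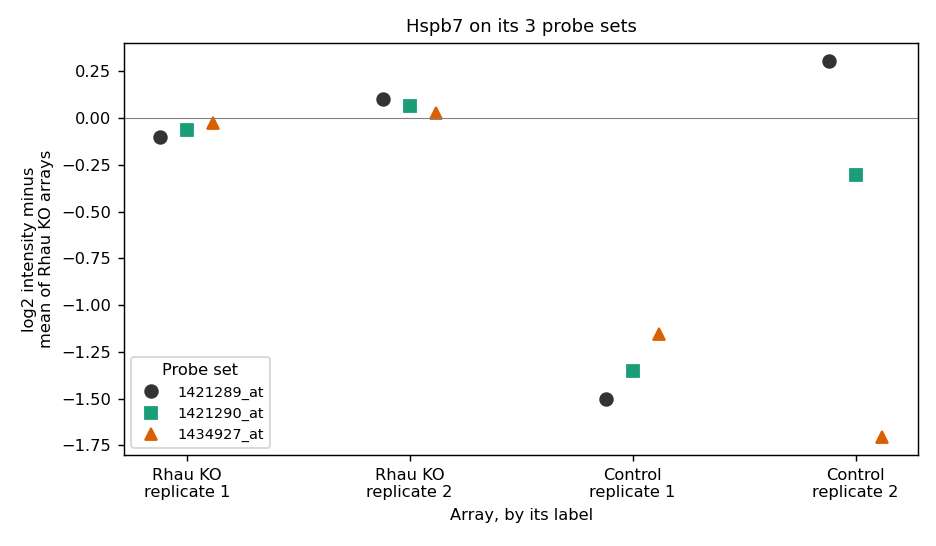
log2 intensity of Hspb7 on its 3 probe sets in each array, minus the mean of the 2 arrays labelled Rhau KO, 1 symbol per probe set. The 3 symbols lie together in both Rhau KO arrays, between -1.16 and -1.50 in Control replicate 1, and spread from -1.70 to 0.30 in Control replicate 2.

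Hspb3 and Hspb2 form a complex with each other in differentiating muscle. Hspb3 read 1523 and 1300.2 in Rhau KO against 4524 (replicate 1) and 2184 (replicate 2) in Control. Both Control arrays were above both Rhau KO arrays, with means of 3354 ± 1654 (SD, n = 2) and 1411 ± 157 (SD, n = 2) and a difference, Rhau KO minus Control, of -1.16 log2 units (standard error 0.40). Its size rested largely on the array with the skeletal muscle signature, since the difference was -0.63 without Control replicate 1 and -1.68 without Control replicate 2. Hspb2, which binds the myotonic dystrophy protein kinase, read 3808 and 3994 in Rhau KO against 5033 (replicate 1) and 3862 (replicate 2) in Control. Control replicate 2 lay between the Rhau KO arrays, and the log2 difference was -0.18 (standard error 0.23). Of the 7 genes, Hspb3, Hspb2 and Hspb6 read highest in Control replicate 1 and the other 4 did not. For Hspb6 the margin was slight, at 29435 there against 29342 in Rhau KO replicate 2.

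Cryab, alphaB-crystallin, is a chaperone of desmin and titin and, like Hspb2, lies on chromosome 9, where Hspb2 is the next gene in the RefSeq annotation. On its brightest probe set, 1434369_a_at, Cryab read 41073 and 40784 in Rhau KO against 34328 (replicate 1) and 39996 (replicate 2) in Control. The Rhau KO arrays were above both Control arrays, but Control replicate 2 was lower by only 0.03 log2 units, and the log2 difference of the groups was 0.14 (standard error 0.23). On 1416455_a_at the readings were 28896 and 31786 in Rhau KO against 22883 (replicate 1) and 31638 (replicate 2) in Control, which overlapped, with a log2 difference of 0.17 (standard error 0.26). These neighbouring genes thus moved apart in Control replicate 1, with Hspb2 at 0.37 and Cryab at -0.25 and -0.41 log2 units from the mean of Rhau KO. The remaining Cryab probe set, 1435837_at, was dim at 16.7 to 68.8 on the 4 arrays (log2 difference 0.64, standard error 0.86) and was the only member probe set outside the brighter part.

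Hspb1 stabilizes actin filaments and is a substrate of the kinase MAPKAPK2. On 1422943_a_at it read 17865 and 18258 in Rhau KO against 10330 (replicate 1) and 30257 (replicate 2) in Control. The Control arrays lay on opposite sides of the Rhau KO arrays and 2.93-fold apart, whereas the Rhau KO arrays were 1.02-fold apart, and the log2 difference of the groups was 0.03 (standard error 0.54). The second probe set, 1425964_x_at, gave the same order, with 13977 and 14926 in Rhau KO against 9053 (replicate 1) and 23513 (replicate 2) in Control. Its log2 difference was -0.01 (standard error 0.49). By Affymetrix naming, a probe set ending in x_at may also bind transcripts of other genes. A group difference near 0 therefore came from Control arrays that differed in opposite ways from Rhau KO, by -0.81 and 0.74 log2 units on 1422943_a_at and by -0.67 and 0.70 on 1425964_x_at.

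Hspb8 works with the co-chaperone Bag3 in delivering damaged Z-disc proteins to autophagy. On 1417013_at it read 12897 and 10205 in Rhau KO against 9518 (replicate 1) and 14260 (replicate 2) in Control. On 1417014_at it read 6432 and 4955, 3440 and 7179 in the same order of arrays, and on 1456434_x_at 694 and 633, 423 and 670.0. Control replicate 1 was the lowest array on all 3 and Control replicate 2 the highest on 2 of them, so that the groups overlapped each time. The log2 differences were -0.02 (standard error 0.29), 0.18 (standard error 0.41) and 0.32 (standard error 0.31), and without Control replicate 1 those of 1417014_at and 1456434_x_at became -0.35 and -0.02. Hspb6, a substrate of protein kinase A in heart and smooth muscle, was the most even member, at 26781 and 29342 in Rhau KO against 29435 (replicate 1) and 26956 (replicate 2) in Control. With a log2 difference of -0.01 (standard error 0.22), it was the one member probe set on which the Control arrays lay closer together than the Rhau KO arrays.

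**Figure D3:**
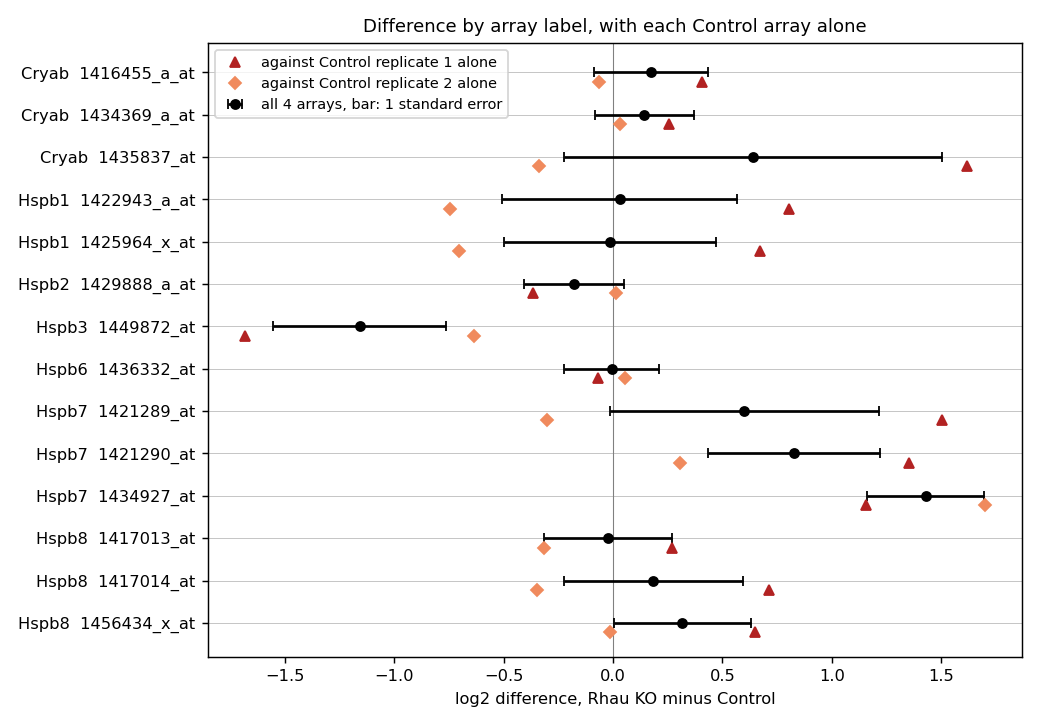
log2 difference of the 14 probe sets, Rhau KO minus Control, with all 4 arrays (black points, bars of 1 standard error from limma) and with each Control array alone (red triangles and orange diamonds, values without error). The black points of Hspb7 on 1434927_at (1.43) and Hspb3 (-1.16) lie farthest from 0, and for Hspb1 the values against each Control array alone fall on opposite sides of 0.

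The Control arrays stood farther apart than the Rhau KO arrays for nearly the whole family. Their log2 gap exceeded that of the Rhau KO arrays on 13 of the 14 probe sets, as it did on 66.0% of all probe sets. The Control arrays were over 2-fold apart on 7 of the 14, against 36.1% of all, and the Rhau KO arrays on 0 of the 14, against 22.2% of all. These shares include many dim probe sets, whose values are noisy, and were not taken for the brighter part. In the brighter part of the array, which held 13 of the 14, the median gap was 0.66 log2 units between the Control arrays for the members and 0.52 for all, and between the Rhau KO arrays 0.13 and 0.18. Control replicate 1 was the lowest array on 10 of the 14, beside 37.5% of all probe sets (9 of 13 and 43.8% in the brighter part), and the highest on 3, beside 28.6%. Control replicate 2 was the highest on 5, beside 23.1% (5 of 13 and 23.3% in the brighter part), and the lowest on 1, beside 25.2%. Without Control replicate 1, 8 of the 14 differences changed sign, and without Control replicate 2, 2 did. The 8 were 1 of Hspb7, 1 of Hspb1, 2 of Hspb8, 2 of Cryab, and those of Hspb2 and Hspb6. Some changed between values near 0, such as Hspb6 from -0.01 to 0.06. The share of all probe sets that changed sign was not computed, so these counts show no trait of the family.

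Genes of the heat shock pathway outside the family were read on the brightest probe set of each. Of 47 measured genes in 6 lists, limma called 0 at an adjusted p under 0.05 and 0 at a fold of 2 with an unadjusted p under 0.05, beside 3.40% of all genes. At an unadjusted p under 0.05 it called 3 of the 47, beside 4.61% of all genes, and the methods' t-test 2. With either Control array left out, more of the 47 passed. Such a fit rests on 1 Control array and no share of all genes was taken for it, so nothing is read from that. The 3 were Flnc and, named after their values were seen, the Hsp90 co-chaperones Ahsa1 (-0.78 log2 units, standard error 0.21) and Chordc1 (-0.70 log2 units, standard error 0.27). The nearest to a call was Flnc, filamin C, a client of the Bag3 and Hspb8 pathway and partner of Hspb7, at 1968 and 2000 in Rhau KO against 3899 (replicate 1) and 3411 (replicate 2) in Control. Both Control arrays were above both Rhau KO arrays and the difference was -0.88 log2 units (limma, standard error 0.20, adjusted p = 0.892), on a probe set that may also bind other transcripts. Des, the intermediate filament desmin, read 13921 and 15768 in Rhau KO, against 21491 (replicate 1) and 16993 (replicate 2) in Control, which differed by -0.37 log2 units (limma, standard error 0.24, adjusted p = 0.892).

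Some genes stand in more than 1 of the lists. Among 8 partners of chaperone-assisted autophagy, 3 had a higher and 5 a lower mean in Rhau KO, with a median log2 difference of -0.14. Bag3 itself read 7618 and 9480 in Rhau KO against 5372 (replicate 1) and 11401 (replicate 2) in Control. Control replicate 1 was thus lowest and Control replicate 2 highest, as for Hspb8 on 1417013_at and 1417014_at but not on 1456434_x_at. The order is not particular to Bag3 and Hspb8. Both Hspb1 probe sets had these ends too, and of 16 heat-inducible chaperones 16 were highest in Control replicate 2 and 11 lowest in Control replicate 1. The share of all genes with these ends was not computed. Of 11 desmin and Z-disc clients, 4 were higher and 7 lower (median -0.37), and 8 read highest in Control replicate 1, against 29.9% of all genes. Of 8 kinases that act on small heat shock proteins, 4 were higher and 4 lower (median -0.17). The 4 other small heat shock proteins had 1 higher and 3 lower (median -0.43), and among these Cryaa, the lens crystallin, was dim at 10.9 to 97.9. The 3 measured genes of heat shock factors and their binding protein, Hsf2, Hsf4 and Hsbp1, had a median of -0.06. Hsf1 was not analysed here.

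The 16 heat-inducible chaperones, a list chosen with earlier results of these data known, are described here without a test. They had 5 higher and 11 lower means in Rhau KO, a median log2 difference of -0.18. In Control replicate 2 they lay at a median of 0.94 log2 units above the mean of Rhau KO, with 7 of 16 over 2-fold higher, against 8.40% of all genes. Hspa1a, an inducible chaperone of the HSP70 family, lay at 4.47 and its co-chaperone Dnajb1 at 2.38. The 14 member probe sets had a median of 0.18 in that array. Hspb1 lay at 0.74 and 0.70, the Hspb8 probe sets at 0.02 to 0.35, Hspb3 at 0.63, and the brighter Cryab probe sets at 0.06 and -0.03, while Hspb7 on 1434927_at was the lowest at -1.70. In Control replicate 1, 11 of the 16 chaperones were the lowest of the 4 arrays, against 40.0% of all genes, with a median of -0.52, and the 14 member probe sets had a median of -0.66.

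**Figure D4:**
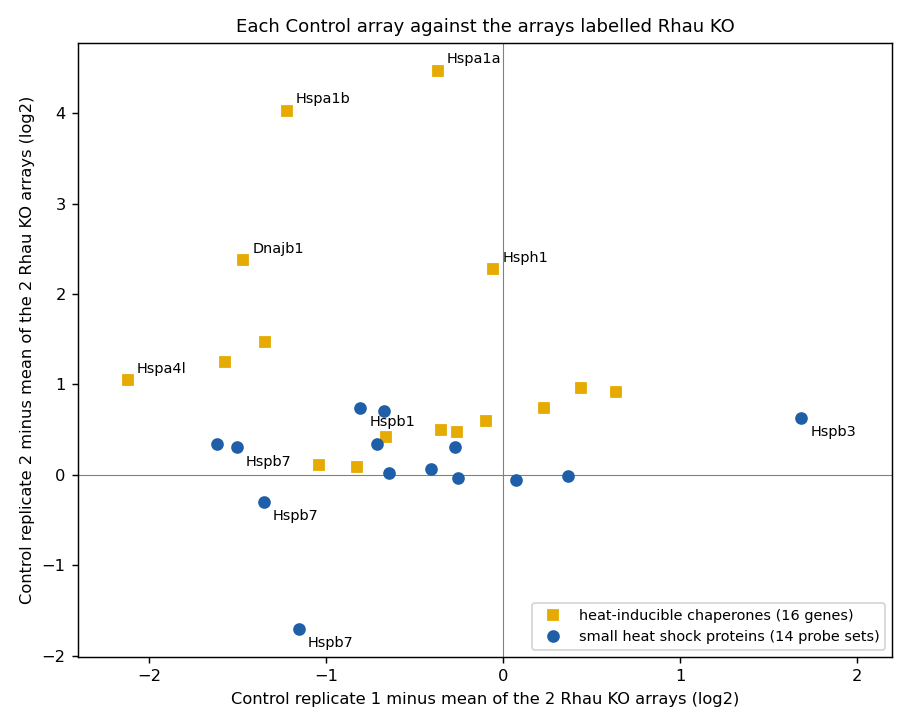
log2 intensity of Control replicate 1 (horizontal axis) and Control replicate 2 (vertical axis), each minus the mean of the 2 arrays labelled Rhau KO, for the 14 small heat shock protein probe sets (blue circles) and 16 heat-inducible chaperones (yellow squares). All chaperones lie above 0 on the vertical axis, up to 4.47 for Hspa1a, and the lowest point is Hspb7 on 1434927_at at -1.70.

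Markers of the other cell types a heart can hold were uneven as well. Of 5 smooth muscle markers, a cell type in which Hspb1 and Hspb6 are also abundant, 4 were higher in Rhau KO, and Acta2, smooth muscle actin, read 11023 and 6699 in Rhau KO against 4452 (replicate 1) and 2590 (replicate 2) in Control (1.34 log2 units in limma, standard error 0.39, adjusted p = 0.892). The summed intensity of the 5 was 9064 to 15401 in Rhau KO and 4773 to 7546 in Control. Most of each sum was Acta2, the only one of the 5 on which the arrays of the 2 labels did not overlap. All 4 endothelial markers were lowest in Control replicate 1, with sums of 2826 there and 6879 to 7631 in the other 3 arrays. Sums of 5 fibroblast markers were 33428 to 34272 in Rhau KO and 39431 to 45220 in Control, and those of 4 macrophage markers 4430 to 4483 and 2678 to 4183. The 2 measured red cell markers summed to 274 to 352 in Rhau KO and 67.1 to 209 in Control, and the 1 measured adipocyte marker, Adipoq, read highest in Control replicate 1 at 911, against 3.93 to 164 in the other 3. No marker was listed at 0, and the part of these cell types in the member values was not tested.

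For each member, the genes most like it over the 4 arrays were sought among 11108 genes of the brighter part, by the root mean square distance between log2 profiles centred on their mean. Nearest to Hspb7 on 1434927_at were Gm2137, Tpmt and 4930481A15Rik, at 0.12, 0.12 and 0.17 log2 units. All 3 were dim in Control replicate 2, at 45.8, 71.2 and 71.0, where values are noisy. Nearest to Hspb3 were Nupr1 (0.04), Gm5802 (0.05) and Ssx2ip (0.06), and to Hspb1 Ubxn11 (0.03), Wipf3 (0.04) and Pcdh17 (0.07). Of these, Gm5802, Ubxn11 and Pcdh17 also had readings under 100. The profile of Hspb2 was closest to Prr12, Scoc and Rbm22, that of Hspb6 to Abt1, Ankrd27 and S100a16, that of Hspb8 to Hmces, Itprid2 and Cyrib, and that of Cryab to Serping1, Atp5c1 and Atp5k, all within 0.02 log2 units. The distances for Hspb7 were wider than those of the other 6 members. With 4 arrays, even small distances describe only these arrays.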

How the data were processed

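The authors extracted total RNA from hearts with TRIZOL, labelled it with a 3′ IVT kit, hybridised it to Affymetrix mouse arrays and processed the scans in GeneSpring by the MAS 5.0 method. The deposited values are linear MAS 5.0 intensities per probe set, scaled by the authors to a common trimmed mean on each array, with no detection call. Intensities under 100 made up 51.8% to 54.0% of an array, and the number of arrays limits the precision. Since MAS 5.0 subtracts mismatch signal, dim values are noisy, and a scaled array hides a change shared by most transcripts.

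The table holds 45101 probe sets, of which 64 controls were left out. Symbols came from the platform annotation, and 14 of 14 member probe sets kept their symbol by Entrez ID in RefSeq. A linear model of limma 3.58.1 (R 4.3.3), moderated by eBayes with a trend, gave the difference Rhau KO minus Control in log2 intensity for all 45037 probe sets, and Benjamini-Hochberg adjustment ran over all of them with a threshold of 0.05. Lists were read on the brightest probe set of each gene, the brighter part is a mean log2 intensity at or over the median, and SDs are of linear intensities. The methods name no test for the arrays, so their two-tailed Student test was an alternative, beside quantile normalization, median centring, eBayes without the trend, a pseudocount of 32, the brighter part alone, 1 probe set per gene, a replicate block and leaving out each array. The code was tested on simulated arrays.

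Named genes were all member probe sets, Dhx36, Bag3, Hspa1a, Dnajb1, Hsf1, Des and Flnc, list genes past both thresholds (up to 4 a list), the 2 markers of widest range in a list (1 shown for each muscle list), and the 3 nearest profiles of each member. Cryaa, Ahsa1, Chordc1 and Adipoq, and Hsf2, Hsf4 and Hsbp1 as a count of 3, were named after their values were seen. So were the cardiomyocyte markers Myl2, Myl3, Atp2a2, Mybpc3 and Myh6. The members and lists were chosen with earlier results of these data known. Sequences are from RefSeq (GRCm38.p6). Python 3.11.15 with pandas 2.3.3 and numpy 2.4.6 made the tables, and matplotlib 3.10.9 the plots.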

Additional observations from a re-analysis of the deposited data

How the results depend on the processing

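With all 4 arrays, Hspb3 was lower in Rhau KO and the probe sets of Hspb7 were higher under each alternative, which took 3 of them, or 1 where each gene had 1 probe set. Median centring removed a shift of 0.12 log2 units shared by all probe sets and left Hspb7 at 1.31, 0.70 and 0.48. It turned Hspb1 on 1422943_a_at to -0.09, and quantile normalization turned Hspb1 on 1425964_x_at to 0.03 and Hspb8 on 1417013_at to 0.02, values near 0 throughout. Of 1514 probe sets past a fold of 2 with an unadjusted p under 0.05, 847 were higher and 667 lower, against 664 and 865 with median centring. The total was 744 with a pseudocount of 32, 434 of 22519 in the brighter part and 599 of 18193 with 1 probe set per gene. Of the members, 2 passed, and 1 with no trend and by the methods' t-test. Of the 47 pathway genes, 0 passed, and 1 with median centring and with the replicate block. No source says that the replicate numbers pair arrays. The deviations of same-numbered arrays had r = 0.003, which is 1 value for both numbers with 2 arrays a group and does not settle whether they do. The replicate block gave 0 adjusted calls, 1606 probe sets past both thresholds and 2 members.

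Leaving out 1 array gave 0 to 6286 adjusted calls, 898 to 7016 probe sets past both thresholds, 0 to 4 members, 0 to 13 pathway genes and 2 or 3 Hspb7 probe sets higher in Rhau KO. In the order Rhau KO replicates 1 and 2 and Control replicates 1 and 2 left out, these were 0, 0, 132 and 6286 adjusted calls, 918, 898, 2089 and 7016 past both thresholds, 1, 0, 1 and 4 members and 0, 0, 8 and 13 pathway genes (at an adjusted p, 0, 0, 6 and 24). Without Control replicate 1, 8 of the 14 member differences changed sign, a count with no share of all probe sets beside it. A lone array is assumed to vary like the others, and the cause of these shifts was not tested.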
